A study of Mus musculus with 9 samples.

Results

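The guanylate-binding proteins (GBPs) and immunity-related GTPases (IRGs) are 2 families of GTP-hydrolysing proteins whose transcripts accumulate in mouse cells exposed to interferon. The members described here are the guanylate-binding protein genes Gbp2 and Gbp3 and the immunity-related GTPase genes Irgm1, Irgm2, Igtp and Iigp1. They were taken by name from a deposited table of RNA-seq read counts, which held all 6 of them among 12125 genes. The members and the further gene lists below were chosen with earlier results of these data known. The cells were TC2R (TRAMPC2-Ras), a single mouse prostate adenocarcinoma line derived from TRAMP-C2 by lentiviral transduction that included activated H-rasG12V, which every group therefore carried. The question set by the design was how the cells' transcripts change when they are given a gene for interleukin-27 (IL-27), with or without a peptide that directs the cytokine to the IL-6 receptor alpha chain.

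Each of 3 groups had 3 libraries. In IL27-pepL the plasmid encoded IL-27 ending in the receptor-directed peptide, in IL27-scr it encoded IL-27 ending in a non-specific peptide, and the plasmid control was the empty pcDNA3.1 backbone. All wells received 1.5 µg of plasmid and 2 µL of Lipofectamine for 6 h and were collected at 24 h. Total counts were 30013229 to 34164353 in IL27-pepL, 30087806 to 35959983 in IL27-scr and 27609884 to 35078027 in plasmid control.

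As background, GBPs are large GTPases that assemble on the membranes of vacuoles and bacteria inside cells. Irgm1, Irgm2 and Igtp (also called Irgm3) are regulatory IRGs that sit on the cell's own membranes and hold the effector IRGs, such as Iigp1 (Irga6), in their inactive state. Type I interferon reaches these genes through a complex with STAT2 and IRF9 that binds the interferon-stimulated response element (ISRE), and interferon gamma through the gamma-activated site (GAS). IL-27 joins an Il27 and an Ebi3 chain, and its receptor, made of Il27ra and gp130 (Il6st), activates STAT proteins, among them STAT3.

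The ISRE is shown as a sequence shared by the members whose promoter was held. The members belong to families induced by interferon, so an ISRE in them was likely in advance. Its presence is therefore a description and not a test. RefSeq promoter windows, 250 bases before to 50 after the start site in GRCm38.p6, were held for 5 of the 6 members, and Iigp1 had no entry. Each of those 5 genes had a window with at least 1 match to the ISRE core, GAAA, any 2 bases and GAAA on either strand. Stretches of 30 bases around the matches, written 5′ to 3′ on the gene's own strand with the core or overlapping cores in capitals, read as follows.
Gbp2: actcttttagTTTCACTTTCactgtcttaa
Gbp3: gacacagTTTCAGTTTCTATTTCccagatc
Irgm1: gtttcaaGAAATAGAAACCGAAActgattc
Irgm2: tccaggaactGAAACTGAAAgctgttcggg
Igtp: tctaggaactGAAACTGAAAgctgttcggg
The Gbp2 stretch lies at chr3:142620594-142620623 on the plus strand, with its core 59 to 50 bases before the start site, and 22 of its bases fall in an annotated exon. The Gbp3 stretch lies at chr3:142559992-142560021 on the plus strand, with overlapping cores 45 to 30 bases before the start. The Irgm1 stretch lies at chr11:48871428-48871457 on the minus strand, with overlapping cores 30 to 15 bases before the RefSeq start and inside an annotated exon. The Irgm2 stretch lies at chr11:58214903-58214932 and the Igtp stretch at chr11:58199512-58199541, both on the plus strand, with the core 64 to 55 bases before the Irgm2 start and 34 to 25 bases before the Igtp start. In both Gbp genes the core stands on the strand opposite to the gene, and in the 3 IRG genes on the gene's strand. A second window of Gbp3 held no match.

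The ISRE core was found in 3.44% of all 32851 promoter windows and in 2.92% of the 11860 windows of genes in the count table. The GAS core, TTCNNNGAA on either strand, was found in Igtp and Irgm2 alone among the 5 matched members, against 8.3% of all windows and 6.77% of those of genes in the table. In both it stands just upstream of the ISRE core without overlapping it. Igtp and Irgm2 also had the most alike windows. A local alignment of their 300 bases gave 271 columns with 247 identical, or 91.1%, whereas the other pairs of members reached 56.1% to 83.3% over 18 to 198 columns. The 250 bases before each start are shown because these genes are neighbours whose promoters are near copies, with the ISRE core in capitals.
Igtp: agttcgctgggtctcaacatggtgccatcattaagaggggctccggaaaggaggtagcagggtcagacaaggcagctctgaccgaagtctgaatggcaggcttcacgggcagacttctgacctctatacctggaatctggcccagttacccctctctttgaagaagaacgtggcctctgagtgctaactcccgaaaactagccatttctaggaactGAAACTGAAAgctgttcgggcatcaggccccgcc
Irgm2: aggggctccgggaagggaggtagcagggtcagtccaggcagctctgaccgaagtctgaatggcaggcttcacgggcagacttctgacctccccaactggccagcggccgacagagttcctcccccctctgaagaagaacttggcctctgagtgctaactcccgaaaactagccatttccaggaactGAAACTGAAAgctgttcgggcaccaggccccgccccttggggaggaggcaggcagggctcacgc
The Igtp sequence is chr11:58199306-58199555 and the Irgm2 sequence chr11:58214727-58214976, both on the plus strand. A match is a description of letters and not of a bound site.

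**Figure D1:**
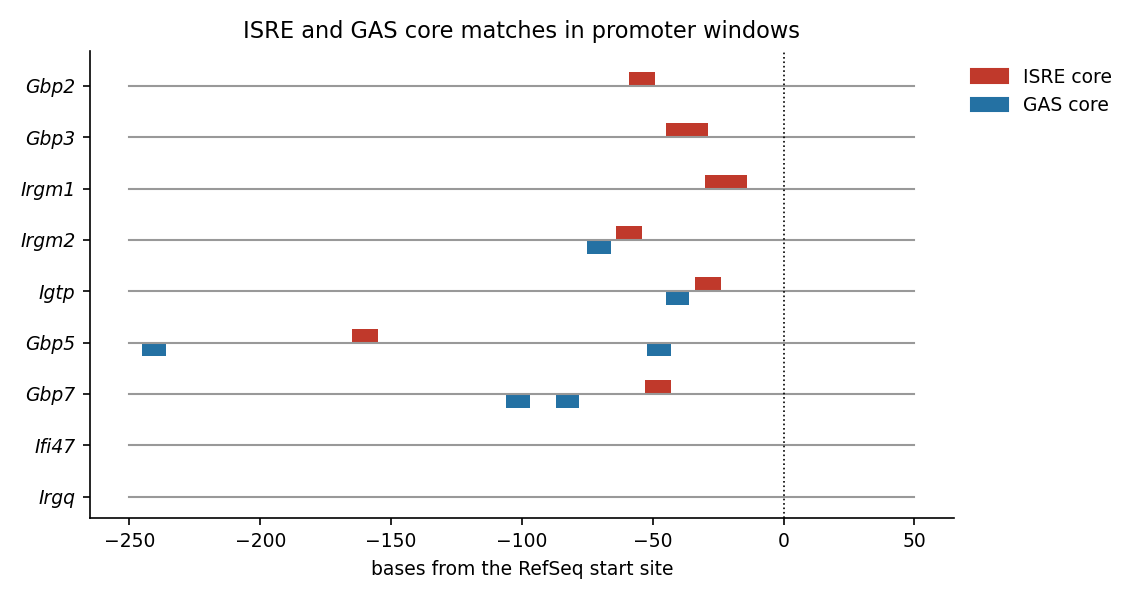
Position of ISRE and GAS core matches (boxes) in the RefSeq promoter windows of 5 members and of 4 related genes, in bases from the start site at 0. All 5 members have an ISRE core within 64 bases before the start, and Ifi47 and Irgq have neither motif.

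In the annotation of the mm10 build (GENCODE M21), Gbp2 lies at chr3:142620602-142638008 and Gbp3 at chr3:142560026-142573209, both on the plus strand. Irgm1 lies at chr11:48861968-48871683 on the minus strand. Igtp lies at chr11:58199556-58207591 and Irgm2 at chr11:58199618-58222782, both on the plus strand, and the genes share 162 exonic bases. Of all 50-base runs in the Igtp transcript, 12.3% also occur in Irgm2, and for Irgm2 7.36% occur in Igtp or other genes, so the split of reads between this pair is uncertain. The same share was 2.07% for Gbp2 (with Gbp2b), 4.79% for Gbp3 (with Gbp7 and Gbp11), 3.19% for Iigp1 (with Gm4951 and Gm5970) and 0.0% for Irgm1.

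The transgene matched the labels. Il27 had 237, 252 and 249 reads in IL27-pepL, 234, 244 and 179 in IL27-scr, and 0, 1 and 1 in plasmid control. Ebi3 had 314, 375 and 419 reads in IL27-pepL, 266, 269 and 269 in IL27-scr, and 1, 2 and 0 in plasmid control. The summed level of both chains was 16.1 to 22.6 CPM (reads scaled by library size) in IL27-pepL and 14.1 to 14.8 CPM in IL27-scr, without overlap, and the Ebi3 difference had an edgeR adjusted p of 0.0697 and passed with DESeq2 and with a replicate block. The transgene level thus moved with the members in that comparison, and its part in their difference was not tested. Of the markers of the line, 7 of 10 were in the table. Vim, a mesenchymal filament gene, averaged 3155 CPM in IL27-pepL, 2841 in IL27-scr and 2801 in plasmid control. Against plasmid control Vim did not pass with edgeR. It was called higher by DESeq2, as were 2.77% of all genes, and with a replicate block, whose counts over all genes are in the last section. Of the epithelial markers, Krt8 averaged 2.03, 2.23 and 2.20 CPM in the same order and Cdh1 0.557, 0.607 and 0.636 CPM. Krt19 averaged 5.82 ± 0.223 CPM in IL27-pepL, 4.60 ± 0.411 in IL27-scr and 4.72 ± 0.657 in plasmid control. For Krt19, Vim and Hras, 3 of the 7 markers, all IL27-pepL libraries lay above the others, as with most members. Such a separation was seen in 11.7% of all genes against IL27-scr and in 10.7% against plasmid control. Krt19 did not pass with edgeR (adjusted p = 0.119 against IL27-scr and 0.165 against plasmid control). The part of these 3 genes in the members' levels was not tested. Of the list, Krt18, Krt5 and Epcam were not analysed here. Of 9 leukocyte markers the table held Cd68 and Csf1r, whose summed level was 8.52 to 9.32 CPM in IL27-pepL, 8.20 to 8.62 CPM in IL27-scr and 7.32 to 8.05 CPM in plasmid control. Cd68 averaged 7.38, 6.83 and 6.34 CPM in this order, and Csf1r 1.47, 1.60 and 1.43 CPM. For Cd68 too all IL27-pepL libraries lay above the others, a separation whose share of all genes is given above. Neither gene passed with edgeR. Ptprc, Cd3e and the other 5 were not analysed here, and the part of Cd68 and Csf1r in the members' levels was not tested. IL27-pepL replicates 1 and 3 stood furthest apart of any pair within a group, with a chi-square of 32.8 per degree of freedom against 3.04 for the closest pair. The labels do not say whether replicates were separate cultures, so p-values cover only the spread among the libraries at hand, and that spread may be technical. In bulk RNA, a larger share of responding cells and more RNA per cell cannot be told apart.

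Per kilobase of the longest transcript, Gbp3 and Irgm1 were the most abundant members and Iigp1 the least. In IL27-pepL, Gbp3 averaged 14.6 ± 1.56 and Irgm1 13.1 ± 1.93 CPM per kb (SD, n = 3), which lie within their spread. In IL27-scr their order turned, with 8.74 ± 0.310 for Gbp3 and 9.38 ± 0.208 for Irgm1, and in plasmid control they were at 10.3 ± 1.09 and 10.6 ± 0.903 CPM per kb, within their spread. Gbp2 came next, at 10.5 ± 0.785 in IL27-pepL, 7.02 ± 0.0518 in IL27-scr and 7.49 ± 0.714 CPM per kb in plasmid control. Igtp followed, with 5.71 ± 0.478, 4.30 ± 0.0831 and 4.47 ± 0.371 CPM per kb in the same order of groups. Irgm2 averaged 4.00 ± 0.803, 3.15 ± 0.250 and 3.34 ± 0.398 CPM per kb. Iigp1, the effector IRG, averaged 2.73 ± 0.519, 1.63 ± 0.161 and 2.07 ± 0.103 CPM per kb. The lowest count of any member was 167 reads, for Iigp1 in an IL27-scr library.

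Of the GBP members, Gbp2, which carries a lipid anchor at its C terminus, had 24.4, 26.2 and 28.4 CPM in the IL27-pepL libraries, 17.6, 17.6 and 17.8 CPM in IL27-scr, and 20.5, 16.9 and 19.1 CPM in plasmid control. Every IL27-pepL library lay above every other library, and the IL27-scr values fell inside the range of plasmid control. Gbp3, its neighbour on chromosome 3, had 35.1, 43.5 and 39.2 CPM in IL27-pepL, 23.1, 24.4 and 22.8 CPM in IL27-scr, and 30.9, 25.1 and 26.9 CPM in plasmid control. Here the 3 groups did not overlap, with IL27-pepL highest and IL27-scr lowest.

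Among the regulatory IRGs, Irgm1 had 47.6, 58.7 and 44.8 CPM in IL27-pepL, 35.5, 35.5 and 36.9 CPM in IL27-scr, and 44.0, 37.1 and 40.7 CPM in plasmid control. The groups kept the order seen for Gbp3 without overlap, but the lowest IL27-pepL library was close to the highest plasmid control library. Igtp had 11.0, 12.7 and 11.0 CPM in IL27-pepL, 8.71, 8.53 and 8.86 CPM in IL27-scr, and 9.70, 8.23 and 9.22 CPM in plasmid control. All IL27-pepL libraries were above all others, while IL27-scr and plasmid control overlapped. Irgm2 had 12.9, 17.3 and 12.1 CPM in IL27-pepL, 10.2, 11.1 and 12.0 CPM in IL27-scr, and 13.4, 11.1 and 10.9 CPM in plasmid control. Its high value came from IL27-pepL replicate 2, and the other IL27-pepL libraries lay inside the range of plasmid control. The effector Iigp1 had 7.93, 10.3 and 7.26 CPM in IL27-pepL, 5.10, 4.59 and 5.60 CPM in IL27-scr, and 6.76, 6.12 and 6.49 CPM in plasmid control. The 3 groups did not overlap, again with IL27-scr lowest.

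**Figure D2:**
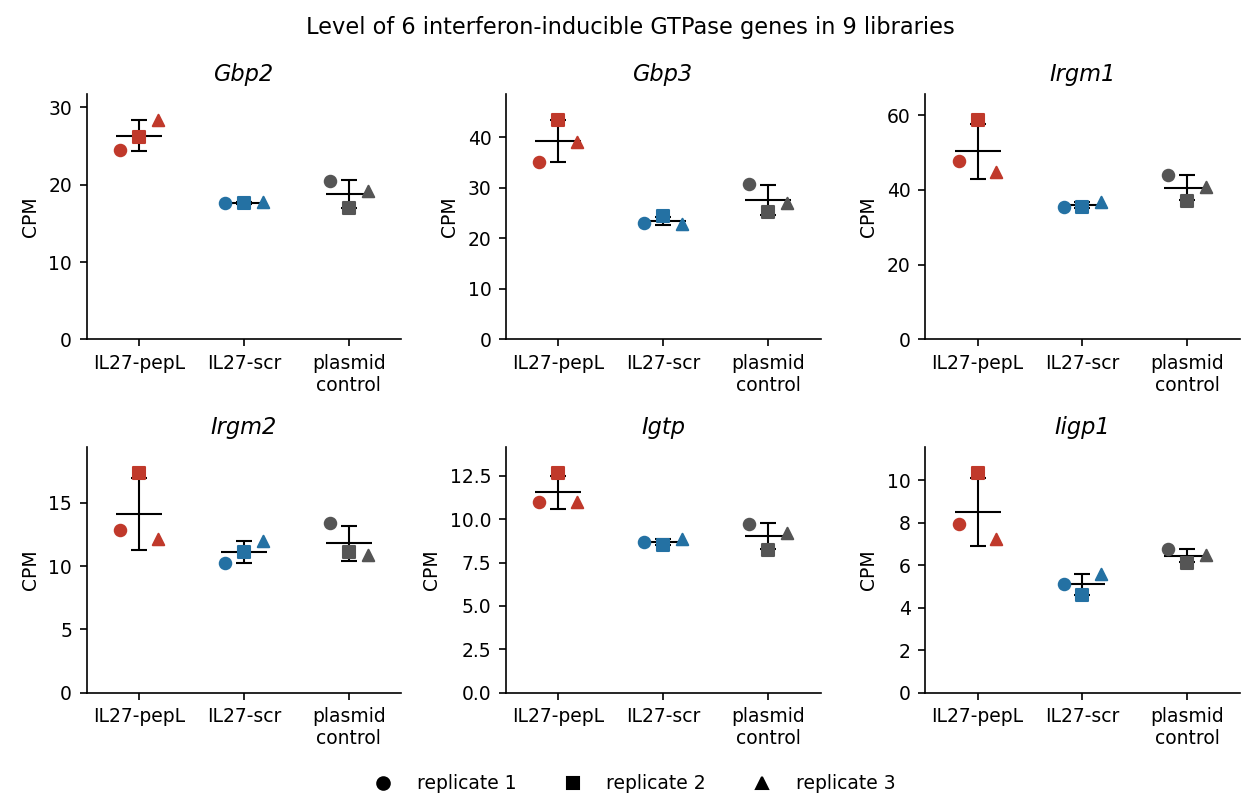
Level of each member in CPM (y axis, starting at 0) in the 9 libraries, by group, with the mean as a line and the SD as bars (n = 3) and replicate number by shape. Gbp2 averaged 26.3 ± 1.98 CPM in IL27-pepL, 17.7 ± 0.130 CPM in IL27-scr and 18.8 ± 1.80 CPM in plasmid control, and IL27-pepL replicate 2 is the highest library for 5 of the 6 genes.

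The comparison of IL27-pepL with IL27-scr asks what the peptide adds to the same cytokine. In it 5 of the 6 members were higher in IL27-pepL at an adjusted p under 0.05, with edgeR's quasi-likelihood test over all genes, against 1.09% of all genes called higher. Because earlier results were known when the members were chosen, such counts describe the members and are no independent test of the set. Gbp3 was 1.67-fold higher (log2 fold change 0.74 ± 0.09 SE, adjusted p = 0.00139) and Gbp2 1.49-fold higher (0.57 ± 0.08, adjusted p = 0.00309). Iigp1 was 1.68-fold higher (0.75 ± 0.13, adjusted p = 0.0112), Irgm1 1.40-fold higher (0.49 ± 0.09, adjusted p = 0.0146) and Igtp 1.33-fold higher (0.41 ± 0.09, adjusted p = 0.0298). Irgm2 did not pass (0.35 ± 0.13, 95% interval 0.07 to 0.63, adjusted p = 0.134). The fold changes placed the members between rank 50 and rank 453 of 12125 genes, and their median was 0.53, against 0.00 over all genes. For all 6 the IL27-pepL libraries lay above the IL27-scr libraries, a separation seen in 11.7% of all genes. With replicate number as a block, the same 5 members passed, against 4.72% of all genes called higher. The calls of Gbp2 and Gbp3 held with any 1 of the 9 libraries left out. That of Iigp1 was lost without IL27-scr replicate 1 (adjusted p = 0.0534) or 2 (0.0719). That of Irgm1 was lost without IL27-scr replicate 1 (0.0695), 2 (0.0772) or 3 (0.0566) or IL27-pepL replicate 2 (0.0508). The Igtp call was lost without IL27-scr replicate 1 (0.110), 2 (0.126) or 3 (0.0900) or IL27-pepL replicate 2 (0.113), and in a fit of these 2 groups alone (0.0562).

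The comparison of IL27-pepL with plasmid control asks what the directed cytokine does against no cytokine. With edgeR both GBP members rose and none of the 4 IRG members passed, so 2 of 6 were called higher against 0.429% of all genes. DESeq2 also called Irgm1 (adjusted p = 0.0284) and Igtp (0.0262), making 4 of 6 against 2.77% of all genes. With the replicate block 3 of 6 passed, Gbp2, Gbp3 and Igtp, in a fit that called more of all genes (counts in the last section). Gbp3 was 1.42-fold higher (log2 fold change 0.50 ± 0.09 SE, edgeR adjusted p = 0.0158) and Gbp2 1.39-fold higher (0.48 ± 0.08, adjusted p = 0.0118). Among the IRGs the log2 fold change was 0.40 ± 0.13 for Iigp1 (adjusted p = 0.106), 0.35 ± 0.09 for Igtp (0.0675) and 0.31 ± 0.09 for Irgm1 (0.0891). Irgm2 stood at 0.26 ± 0.13, with an interval of -0.02 to 0.54 and an adjusted p of 0.253. The members' median was 0.37, against 0.00 over all genes. In 5 of 6 all IL27-pepL libraries lay above all plasmid control libraries, as in 10.7% of all genes, and the exception was Irgm2. Both calls depended on single libraries. Gbp2 was lost without plasmid control replicate 2 (adjusted p = 0.0618) or 3 (0.0574) or IL27-pepL replicate 2 (0.0518). Gbp3 was lost without plasmid control replicate 2 (0.0869) or 3 (0.0672) or IL27-pepL replicate 2 (0.0726), and in a fit of these 2 groups alone (0.0507). Without IL27-pepL replicate 1, Igtp (0.0172), Irgm1 (0.0215) and Iigp1 (0.0369) passed as well, and without IL27-pepL replicate 3 Irgm1 passed (0.0420).

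The comparison of IL27-scr with plasmid control asks what the cytokine with the non-specific peptide does. No member passed, with adjusted p = 0.999 for each by edgeR, 0 calls by DESeq2 and 0 by limma-voom, while 0.0247% of all genes passed with edgeR. That share was 3 genes, among them the transgene chains Il27 and Ebi3. The log2 fold changes were all below 0. They were -0.35 ± 0.14 for Iigp1, -0.24 ± 0.09 for Gbp3, -0.18 ± 0.09 for Irgm1, -0.09 ± 0.08 for Gbp2, -0.09 ± 0.13 for Irgm2 and -0.06 ± 0.09 for Igtp. At an unadjusted p under 0.05 there were 2 members, Gbp3 and Iigp1, as were 2.57% of all genes. For Gbp3, Iigp1 and Irgm1 every IL27-scr library lay below every plasmid control library, a separation seen in 5.25% of all genes. The median was -0.14, against -0.00 over all genes. Without plasmid control replicate 1 the value of Irgm2 turned to 0.02. The 3 comparisons share libraries pairwise, so their values stand side by side and are not independent of each other.

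**Figure D3:**
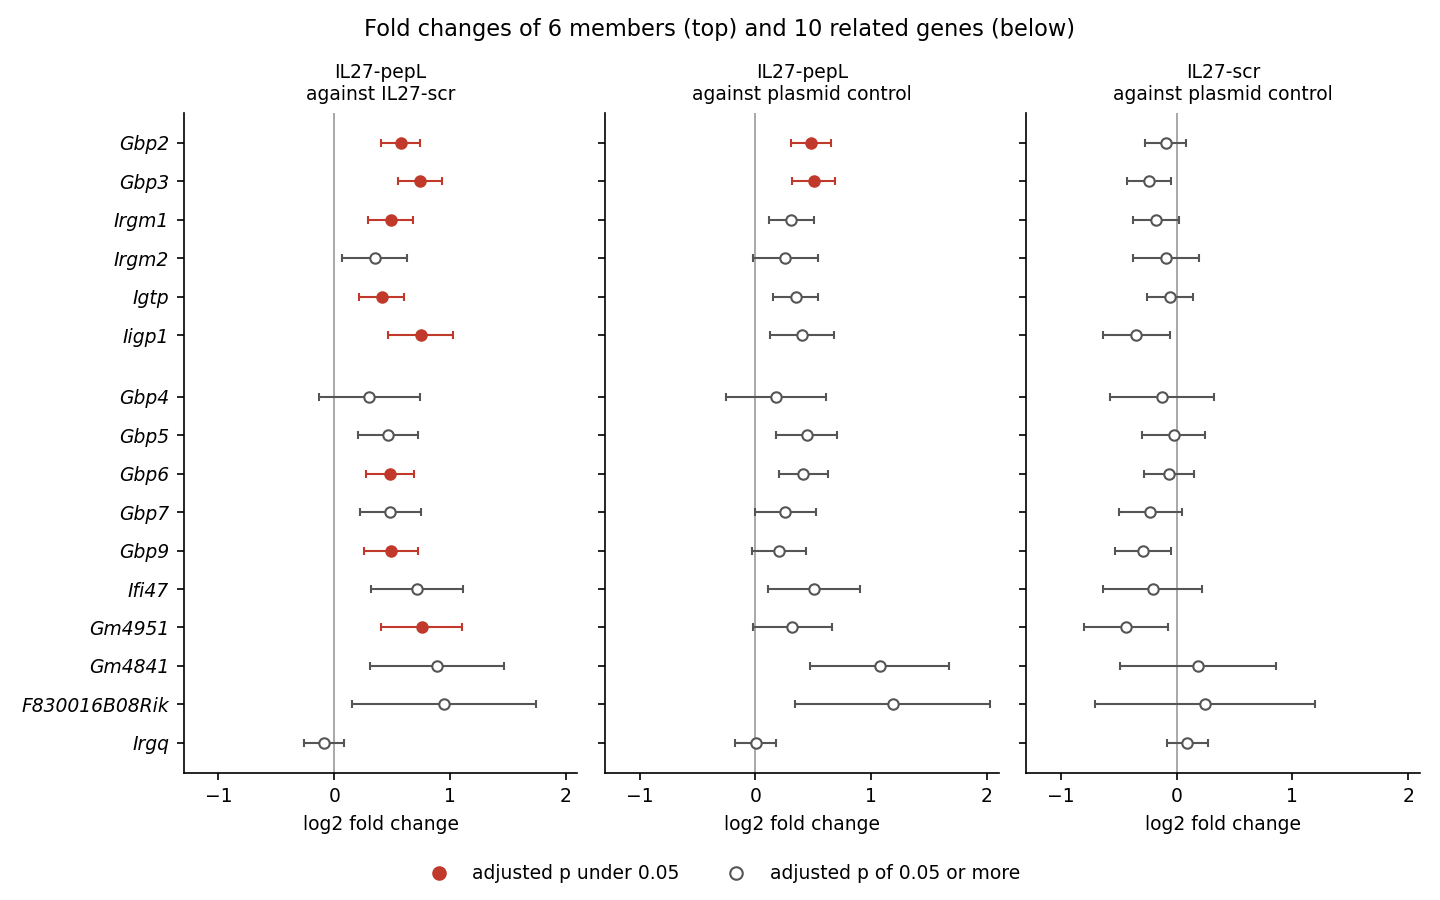
Log2 fold changes (x axis) of the 6 members and, below them, 10 related genes in the 3 comparisons, with 95% intervals and filled points where the adjusted p was under 0.05. Against IL27-scr 5 members and 3 related genes are filled, against plasmid control Gbp2 and Gbp3 alone, and none is filled for IL27-scr against plasmid control.

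**Figure D4:**
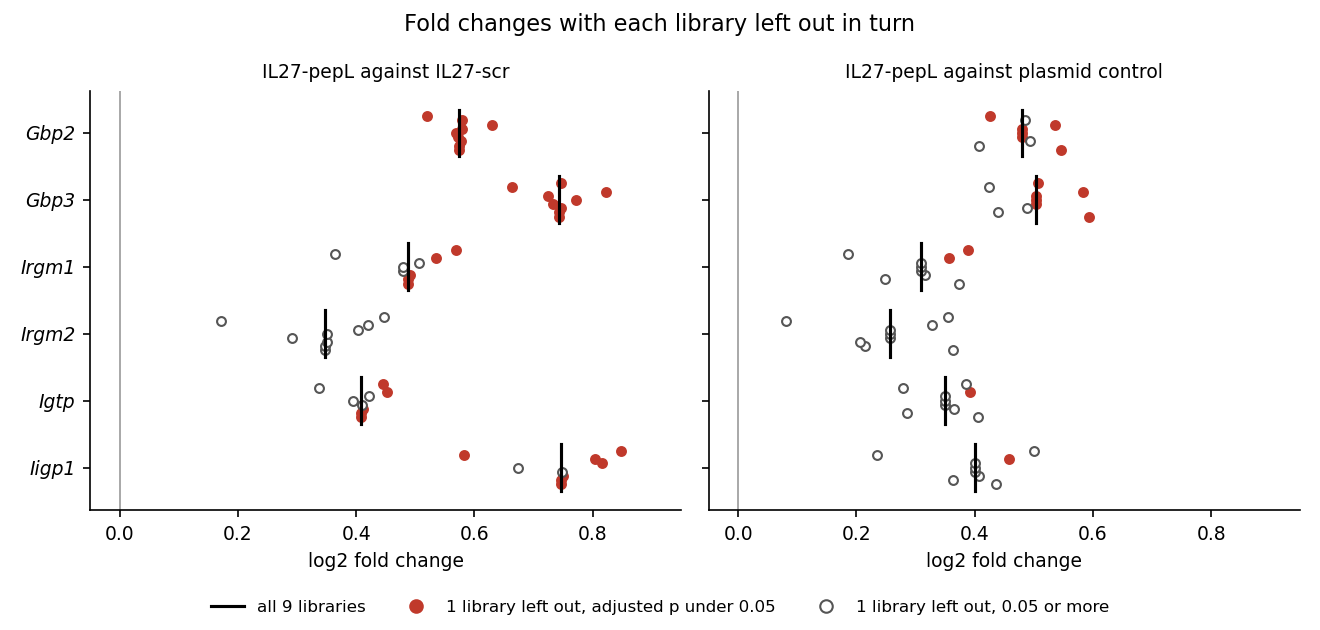
Log2 fold change of each member (x axis) with each of the 9 libraries left out in turn (points, filled at an adjusted p under 0.05) and with all libraries (vertical line). Gbp2 ranges over 0.52 to 0.63 against IL27-scr and Irgm2 over 0.17 to 0.45, and all points of the 6 members lie above 0 in both panels.

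Over the 9 libraries the members moved together, and less so once group means were removed. Summed over the 6, their level was 139, 169 and 143 CPM in IL27-pepL, 100.3, 101.7 and 104 CPM in IL27-scr, and 125, 105 and 113 CPM in plasmid control. IL27-pepL replicate 2 was the highest of its group for 5 of 6 members, with Gbp2 the exception. Plasmid control replicate 1 was the highest of its group for 6 of 6, and IL27-scr replicate 3 for 5 of 6. Across the 9 libraries Pearson's r between the log2 levels of the 15 pairs was 0.661 to 0.969, with a median of 0.908. With group means removed it was 0.0588 to 0.944, with a median of 0.749. The highest such value was between Irgm1 and Igtp and the lowest between Gbp2 and Iigp1. Gbp2 was also low with Irgm2 (0.184) and Irgm1 (0.271), and higher with Igtp (0.549) and Gbp3 (0.692). These correlations describe 9 libraries that share their groups and their depth scaling.

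**Figure D5:**
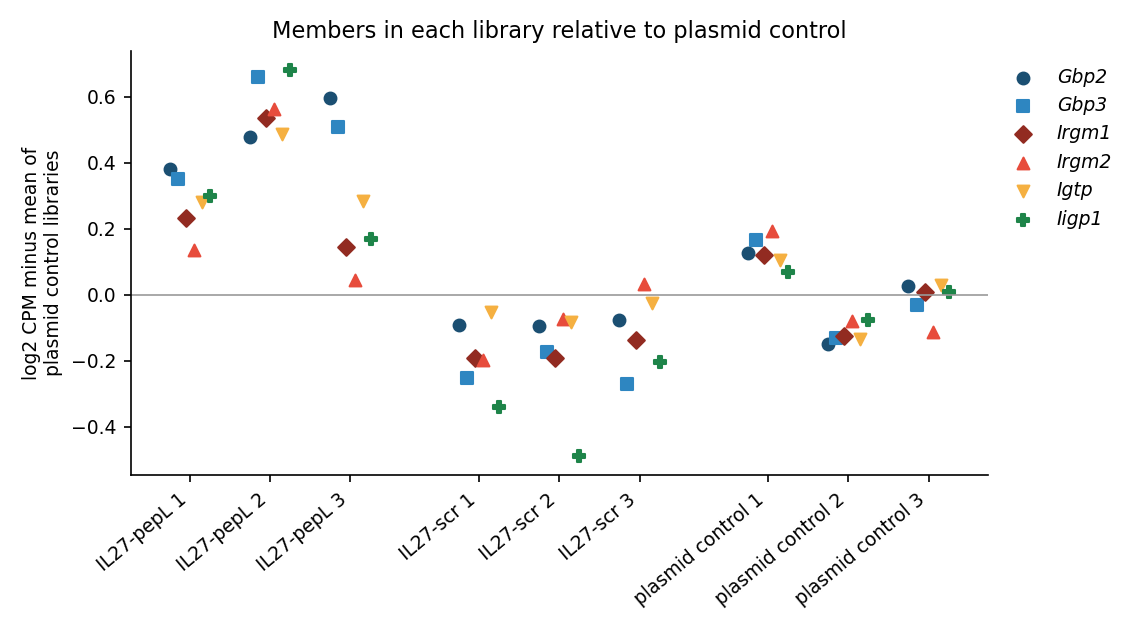
Log2 CPM of each member in each library minus the mean log2 CPM of the plasmid control libraries (y axis). The 6 members average 0.28, 0.57 and 0.29 in IL27-pepL replicates 1, 2 and 3 and lie mostly below 0 in IL27-scr.

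Of 25 further GBP and IRG family genes, 10 were in the table. Against IL27-scr, 3 of the 10 were higher in IL27-pepL, where 1.09% of all genes were, 8 had an unadjusted p under 0.05, as had 23.3% of all genes, and 9 of 10 had values above 0. Gbp6 had 5.62, 5.32 and 5.29 CPM in IL27-pepL, 3.90, 3.74 and 3.99 CPM in IL27-scr, and 4.08, 4.08 and 4.01 CPM in plasmid control (log2 fold change against IL27-scr 0.48 ± 0.10 SE, edgeR adjusted p = 0.0202). Its IL27-pepL libraries lay above all others, but 59.7% of its 50-base runs occur in other genes, so its reads are uncertain. Gbp9 averaged 5.50 ± 0.566 CPM in IL27-pepL, 3.92 ± 0.230 in IL27-scr and 4.78 ± 0.137 in plasmid control (SD, n = 3), with a log2 fold change against IL27-scr of 0.49 ± 0.11 (edgeR adjusted p = 0.0326). Gm4951, an IRG gene close in sequence to Iigp1, averaged 3.40 ± 0.700, 2.02 ± 0.172 and 2.72 ± 0.154 CPM in the same order, with 0.76 ± 0.16 against IL27-scr (edgeR adjusted p = 0.0277). All 3 calls were lost without any 1 IL27-scr library or IL27-pepL replicate 2, and in a fit of these 2 groups alone, and that of Gbp9 also without plasmid control replicate 1 or 3. With the replicate block Gbp5, Gbp7 and Ifi47 passed as well, making 6 of 10, where 4.72% of all genes were called higher.

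Those that did not pass against IL27-scr included Ifi47, an effector IRG, at 0.71 ± 0.19 (edgeR adjusted p = 0.0601), Gbp7 at 0.48 ± 0.12 (0.0564) and Gbp5 at 0.47 ± 0.12 (0.0584). Gbp4, Gm4841 and F830016B08Rik averaged at most 1.09 CPM in any group and did not pass. Irgq, a divergent relative whose promoter window held neither motif, averaged 18.8 ± 2.01 CPM in IL27-pepL and 20.0 ± 0.820 CPM in IL27-scr, a log2 fold change of -0.09 ± 0.08 with an interval of -0.26 to 0.09. Over the 10 the median was 0.49. Against plasmid control 0 of the 10 passed with edgeR in IL27-pepL, and 5 had an unadjusted p under 0.05, as had 23% of all genes. DESeq2 called 1 higher, where 2.77% of all genes were, and limma-voom called 0. The replicate block called 3 higher (Gbp5, Gbp6 and Gm4841), in a fit that called more of all genes (counts in the last section). The lowest edgeR adjusted p in the main fit was 0.0513 (Gbp6), all 10 values were above 0 and their median was 0.37. In IL27-scr against plasmid control 0 of 10 passed with edgeR, DESeq2 or limma-voom, and 7 were below 0. An unadjusted p under 0.05 was found for 2 of them, as for 2.57% of all genes. Promoter windows were held for 4 of the 10, and both cores were found in Gbp5 and Gbp7 and neither in Ifi47 or Irgq.

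The Mx genes are the other interferon-inducible large GTPases that were in the table, 2 of 8 listed. Mx2 had 9.33, 11.6 and 11.3 CPM in IL27-pepL, 6.18, 6.79 and 6.92 CPM in IL27-scr, and 8.93, 7.99 and 8.05 CPM in plasmid control. The groups did not overlap, with IL27-scr lowest, and Mx2 rose against IL27-scr (log2 fold change 0.69 ± 0.10 SE, edgeR adjusted p = 0.00394) with any 1 library left out. Against plasmid control it did not pass with edgeR (0.36 ± 0.10, adjusted p = 0.0770) and passed with DESeq2 and with the replicate block. Mx1 averaged 0.653 ± 0.296 CPM in IL27-pepL and 0.572 ± 0.176 CPM in IL27-scr, with overlapping libraries. The atlastins are structural relatives of the GBPs that shape the endoplasmic reticulum and are not known as interferon-induced genes. All 3 were in the table and 0 passed in any comparison with edgeR, DESeq2 or limma-voom. Against IL27-scr their median was -0.16, with 2 at an unadjusted p under 0.05, as were 23.3% of all genes. With the replicate block, which called more of all genes (counts in the last section), Atl3 was called lower in IL27-pepL than in plasmid control. For 2 of the 3, Atl2 and Atl3, all IL27-pepL libraries lay below all plasmid control libraries, as in 13.4% of all genes. Atl2 averaged 82.8 ± 3.07 CPM in IL27-pepL and 89.8 ± 0.0720 CPM in IL27-scr, and Atl3 186 ± 15.8 and 207 ± 10.5 CPM.

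Of the chain that carries interferon and IL-27 signals to these promoters, 18 of 21 genes were in the table. Against IL27-scr, 2 were higher in IL27-pepL and 0 lower, where 1.09% and 1.44% of all genes were, with a median of -0.01. Stat2 and Irf9 encode parts of the complex that binds the ISRE. Stat2 had 33.2, 36.5 and 31.3 CPM in IL27-pepL, 23.3, 22.4 and 23.2 CPM in IL27-scr, and 30.5, 22.8 and 28.6 CPM in plasmid control (log2 fold change against IL27-scr 0.55 ± 0.09, edgeR adjusted p = 0.00947). Its IL27-pepL libraries lay above all others, and the call was lost without IL27-scr replicate 2 (0.0559) or IL27-pepL replicate 2 (0.0529). Irf9 averaged 53.5 ± 5.32 CPM in IL27-pepL, 42.3 ± 2.99 in IL27-scr and 45.2 ± 1.35 in plasmid control (0.34 ± 0.07 against IL27-scr, edgeR adjusted p = 0.0295), a call that held in 2 of the 9 fits with a library left out. It was kept without plasmid control replicate 2 or IL27-pepL replicate 1, and the highest adjusted p among the other 7 fits was 0.143. With the replicate block 3 genes of the chain were higher against IL27-scr, among them Stat2 and Irf9, and Socs3 and Il6st were lower, where 4.72% and 4.44% of all genes were. Irf1 averaged 38.1 CPM in IL27-pepL, 36.9 in IL27-scr and 40.4 in plasmid control, and its libraries overlapped between groups.

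Against plasmid control, 0 genes of the chain were higher and 1 was lower in IL27-pepL, where 0.429% and 1.2% of all genes were, with a median of -0.04. Socs3, a feedback inhibitor of gp130 signals, had 35.7, 34.0 and 32.1 CPM in IL27-pepL, 44.5, 39.1 and 40.6 CPM in IL27-scr, and 44.7, 38.3 and 47.4 CPM in plasmid control (log2 fold change against plasmid control -0.35 ± 0.08, edgeR adjusted p = 0.0438). Its IL27-pepL libraries lay below all others, as against plasmid control in 13.4% of all genes, opposite to the GTPase genes. The call held in 2 of 9 fits with a library left out, those without plasmid control replicate 2 or IL27-pepL replicate 1, with adjusted p up to 0.128 in the others, and it was lost with limma-voom and in a fit of these 2 groups alone. With DESeq2, 3 genes of the chain were higher, among them Stat2 and Irf9, and 3 lower (Socs3, Socs1 and Il6st), where 2.77% and 3.61% of all genes were. With the replicate block Irf9 alone was higher and the same 3 were lower, in a fit that called more of all genes (counts in the last section). In IL27-scr against plasmid control 0 of the 18 passed with edgeR, DESeq2 or limma-voom. An unadjusted p under 0.05 was found for 1 of them, as for 2.57% of all genes.

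The genes that act with GBP and IRG proteins gave 0 calls in any comparison with edgeR or limma-voom, and with DESeq2 Map1lc3b alone was called, higher in IL27-pepL than in either other group (3.52% of all genes were called higher against IL27-scr). With the replicate block Map1lc3b passed against IL27-scr and against plasmid control too. Of the autophagy conjugation genes, which IRG proteins rely on for their placement, 15 of 15 were in the table, and against IL27-scr their median was -0.00 with 3 at an unadjusted p under 0.05, where 23.3% of all genes were, which is also the background for the counts of the following lists. The lowest p were those of Map1lc3b, with 95.4 ± 9.07 CPM in IL27-pepL and 79.0 ± 3.08 CPM in IL27-scr (edgeR adjusted p = 0.0584), and Gabarap, with 104 ± 2.18 and 95.3 ± 2.15 CPM (0.143). Of the enzymes that attach and trim lipid anchors such as that of Gbp2, 6 of 6 were in the table with a median of -0.03 and 1 at an unadjusted p under 0.05. Pggt1b, a subunit of the geranylgeranyl transferase, averaged 30.4 ± 0.827 CPM in IL27-pepL and 34.5 ± 2.41 CPM in IL27-scr, and the processing protease gene Rce1 31.3 ± 4.08 and 27.6 ± 1.64 CPM. Of the inflammasome and cell-autonomous effectors, 7 of 12 were in the table with a median of 0.07 and 1 at an unadjusted p under 0.05. Trim21, a cytosolic antibody receptor, averaged 5.86 ± 1.24 CPM in IL27-pepL and 4.64 ± 0.617 CPM in IL27-scr, and Gsdmd, the pore protein gasdermin D, 28.6 ± 1.85 and 25.9 ± 0.524 CPM.

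The genes with the pattern most like that of the members were sought by Pearson's r between log2 CPM and the mean standardized level of the 6 over the 9 libraries, among 11374 genes averaging at least 1 CPM. The 10 nearest named genes were Parp12 (r = 0.988), Oas1a (0.983), Ifit3 (0.983), Ube2l6 (0.980), Rtp4 (0.973), Ifitm3 (0.970), Irf7 (0.968), Tapbp (0.968), Shisa5 (0.968) and Ddx58 (0.965), with Spearman's rho of 0.933 to 1. They were chosen for this likeness, so their levels are a description. Parp12 averaged 43.2 ± 4.98 CPM in IL27-pepL, 30.1 ± 1.73 in IL27-scr and 33.3 ± 1.88 in plasmid control. Irf7 averaged 25.8 ± 3.53, 12.3 ± 0.694 and 16.2 ± 2.94 CPM in the same order, the widest ratio of the 10 between IL27-pepL and IL27-scr. Ifitm3 averaged 231 ± 22.3, 173 ± 11.2 and 183 ± 10.0 CPM. Within the family, Gm4951 (r = 0.926) and Ifi47 (0.908) lay nearest to the members, Gbp5, Gbp6, Gbp7, Gbp9 and Gm4841 reached 0.837 to 0.880, Gbp4 had r = 0.509, F830016B08Rik 0.578, and Irgq had r = -0.190.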

How the data were processed

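RNA was sequenced from 9 libraries of TC2R cells, 3 per group, and the authors deposited raw counts per gene, 1 column per library. Per the submitters' processing notes the tools were FastQC, STAR (1.5.1), featureCounts, Subread (1.6.1) and edgeR (3.22.5) with build mm10, with no roles or order given. The sources used here give neither annotation nor strand setting, so reads of overlapping genes cannot be told apart. Groups and replicate numbers came from the labels. All 9 libraries entered 1 fit in R 4.3.3 with edgeR 4.0.16: TMM scaling, filterByExpr (which removed 0 genes), group as the term, the quasi-likelihood test, and Benjamini-Hochberg adjustment over 12125 genes with a threshold of 0.05. The biological coefficient of variation was 5.76%. CPM use TMM-scaled library sizes, and a standard error is the log2 fold change divided by the square root of F. The procedure was also run on simulated counts, with outcomes not reported here. Those counts were drawn independently for each library, so they cannot show effects of pairing.

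The members and lists were chosen with earlier results of these data known. Named were the 6 members, every family gene that passed, up to 4 passing genes of each other list or the 2 with the smallest p against IL27-scr where none passed, and the 10 genes most like the members by r (predicted genes passed over); other genes were named after their values were seen. Motifs were searched on both strands of RefSeq promoter windows in GRCm38.p6. The alternatives tried were size factors from DESeq2 (1.42.0) and its Wald test, low-count filtering left out or set at 1 CPM in 3 libraries (which removed 633 genes), limma-voom (limma 3.58.1), a fit of the compared groups alone, a replicate block, a length and GC offset (values known for 96.4% of genes), removal of Rn45s, Il27 and Ebi3, and each library left out in turn. Labels do not say what replicate numbers mark. Same-numbered deviations correlated at 0.128 to 0.394 between IL27-pepL and IL27-scr and at 0.118 to 0.308 between IL27-scr and plasmid control. Between IL27-pepL and plasmid control r was -0.0335 to 0.236. These values do not settle whether the numbers mark pairs, so the main fit has no block. The block, fitted over all 9 libraries, is an alternative. Where its calls for the members and lists differed, they stand beside the results, and its counts over all genes are in the last section. Results for some genes of the lists are not reported here.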

Additional observations from a re-analysis of the deposited data

Results flagged for a closer look

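For 5 members the effect of the IL-27 plasmid over the plasmid control differed between IL27-pepL and IL27-scr, as tested by the direct comparison of these groups with edgeR. Plasmid control cancels in this difference. It is therefore the comparison already given above, with the same dependence on single libraries, and no further result. The log2 difference was 0.74 for Gbp3 (0.50 in IL27-pepL and -0.24 in IL27-scr, each against plasmid control), 0.57 for Gbp2 (0.48 and -0.09), 0.75 for Iigp1 (0.40 and -0.35), 0.49 for Irgm1 (0.31 and -0.18) and 0.41 for Igtp (0.35 and -0.06). For Irgm2 it was 0.35 (0.26 and -0.09) and did not pass.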

How the results depend on the processing

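In IL27-pepL against plasmid control, 197 genes, 2 members and 0 related genes were called. The counts were 774, 4 and 1 with DESeq2, in which Irgm1 (adjusted p = 0.0284) and Igtp (0.0262) joined, 48, 1 and 0 with the 2 groups alone, and 1 related gene with a 1 CPM filter or a length and GC offset. In IL27-pepL against IL27-scr, 306 genes, 5 members and 3 related genes were called, against 811, 5 and 5 with DESeq2, 165, 4 and 0 with the 2 groups alone, and 5 related genes with the offset. In IL27-scr against plasmid control 3 genes passed, and 0 with Rn45s, Il27 and Ebi3 removed. With each library left out in turn, genes called ranged over 36 to 2084, 69 to 1782 and 3 to 3 in these comparisons, members over 0 to 5, 2 to 5 and 0 to 0, related genes over 0 to 3, 0 to 7 and 0 to 0, and the members' median over 0.26 to 0.42, 0.47 to 0.58 and -0.20 to -0.07. Without IL27-pepL replicate 2 the median against plasmid control was 0.26, against 0.37 with all libraries. Irgm2 in IL27-scr against plasmid control ranged over -0.15 to 0.016 with a library left out, turning above 0 without plasmid control replicate 1, the only reversal among 13 genes with 54 alternative values each, and the cause was not tested. With a replicate block, 1019 genes, 3 members (Igtp joining at an adjusted p of 0.0450) and 3 related genes passed in IL27-pepL against plasmid control, and 1110, 5 and 6 against IL27-scr. In IL27-scr against plasmid control the block left 3 genes and 0 members. Of 18 pairings of a library with another group, 13 were best with the own number, and 5 of 9 libraries in both groups. Each pairing had 3 libraries of the other group to choose from.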
